A study of Mus musculus with 6 samples.

Results

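The glycan and heparan sulfate enzymes were examined in forelimb bud ectoderm of mouse embryos at E10.5, in 3 Sp8 null and 3 wild-type embryos. They were the genes whose symbols belong to the sialyltransferase (St3gal, St6gal, St6galnac, St8sia), Galnt, B3gnt, B4galt, Fut, Mgat, Ndst, Hs3st, Hs6st and Chst families, together with Hs2st1, Ext1, Ext2, Extl1, Extl2, Extl3, Glce, Sulf1 and Sulf2. This rule used no measured value, but the families were chosen with earlier results of these data known. It found 105 of the 49452 genes in the table of the authors. By family, 23 of these were grouped as heparan sulfate enzymes and 82 as other members.

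Each library was made from polyadenylated RNA of the ectoderm of both forelimbs of 1 embryo, freed from the bud with trypsin and forceps. Wild-type embryos came from C57BL/6 crosses. Sp8 null embryos came from crosses between heterozygous carriers of the Sp8-Cre-ERT2 allele, so any change that comes with this allele is shared by all 3 null embryos and is absent from the wild type. The comparison asks which transcripts change in the absence of Sp8, which encodes a transcription factor of the Sp/KLF family that the limb ectoderm needs.

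Glycosyltransferases of the Golgi build sugar chains step by step on proteins and lipids, and sulfotransferases decorate them. Heparan sulfate is polymerised by the Ext enzymes, de-acetylated and N-sulfated by the Ndst enzymes, epimerised by Glce and O-sulfated by the Hs2st, Hs6st and Hs3st enzymes, and the extracellular Sulf enzymes later remove 6-O-sulfates. The chains bind FGF, Wnt and BMP ligands, which the limb ectoderm exchanges with the mesenchyme beneath it.

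Sp8 itself was listed at 0.766, 0.460 and 1.14 FPKM (fragment counts corrected for transcript length and library size) in Sp8 null embryos 1, 2 and 3, and at 8.35, 11.0 and 13.5 FPKM in wild-type embryos 1, 2 and 3, so the labels and the targeted gene went together. Sequencing depth, given as a multiple of that of wild-type embryo 1, ranged from 0.842 to 1.03. All 10 ectoderm markers were above the filter used for the test, but their sum was lower in every Sp8 null library (609 to 737 FPKM) than in every wild-type library (738 to 805 FPKM). Of these markers, limma called Epcam lower (log2 fold change -0.53, adjusted p = 0.0313) and Tfap2a higher (0.52, adjusted p = 0.0163). Markers of limb mesenchyme summed to 46.5, 151 and 44.6 FPKM in null embryos 1 to 3, so null embryo 2 was high. In wild-type embryos 1 to 3 they summed to 71.3, 35.0 and 47.5 FPKM. Of the 9 tested, Lmx1b was called higher in the null (1.07, limma adjusted p = 0.0166) and none was called lower. Pdgfra was lower in the null without overlap but was not called (-1.15, limma adjusted p = 0.120). Mean FPKM was higher in the null for 10 of the 12 listed. Erythroid markers overlapped, at 62.5 to 163 FPKM in null and 11.6 to 426 FPKM in wild-type libraries. Macrophage markers were low but did not overlap, at 2.80 to 5.26 FPKM in null and 1.69 to 2.55 FPKM in wild-type libraries, and endothelial markers summed to 2.51 to 4.38 and 2.05 to 2.97 FPKM. The part of these marker differences in the results below, most of whose calls were also lower in the null, was not tested.

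Most of the enzymes were expressed. The mean over the 6 libraries was at least 1 FPKM for 60 of the 105 and at least 10 FPKM for 18, of which 9 were heparan sulfate enzymes. Sulf2, an endosulfatase, had the highest level, at 55.5 FPKM, followed by St6gal1, which adds terminal sialic acid to N-glycans, at 32.9 FPKM, and the polymerase Ext1 at 32.2 FPKM. At the other end, 6 members (Chst4, Fut7, Galnt15, Hs3st2, Mgat4d and St6galnac1) were listed at 0 in every library.

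A gene was tested with limma on log2(FPKM + 1) if it reached 1 FPKM in at least 3 libraries, and called at an adjusted p under 0.05. Of the 105 members, 61 were tested and 44 were not. Loss of Sp8 was accompanied by a lower transcript level of 7 enzymes (St6galnac5, Mgat4a, Galnt1, Fut8, Galnt7, Chst3 and Hs3st3b1) and a higher level of 3 (Galnt18, Galnt16 and St8sia2). These 10 calls were 16.4% of the tested members, where 6.83% of all 12133 tested genes were called. The 7 lower calls were 11.5% of the tested members, beside 5.15% of all tested genes, and the 3 higher calls were 4.92%, beside 1.68%. The split depended on scaling between libraries: median-of-ratios scaling gave 5 members higher and 5 lower, and upper-quartile scaling gave 5 and 4. The median log2 fold change (Sp8 null minus wild type, on the log2(FPKM + 1) scale) was -0.13 over the 61 tested members and -0.06 over all tested genes, and the median absolute change was 0.21 and 0.14.

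At an unadjusted p under 0.05, 26 of the 61 tested members passed (42.6%, beside 24.0% of all tested genes), of which 21 were lower (34.4%, beside 17.5%) and 5 higher (8.20%, beside 6.50%). The genotypes did not overlap for 30 tested members (49.2%, beside 29.8% of all tested genes), and the null was the lower group for 24 of them (39.3%, beside 21.1%). The mean log2 value was lower in the null for 37 members (60.7%), close to the 61.3% of all tested genes.

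**Figure D1:**
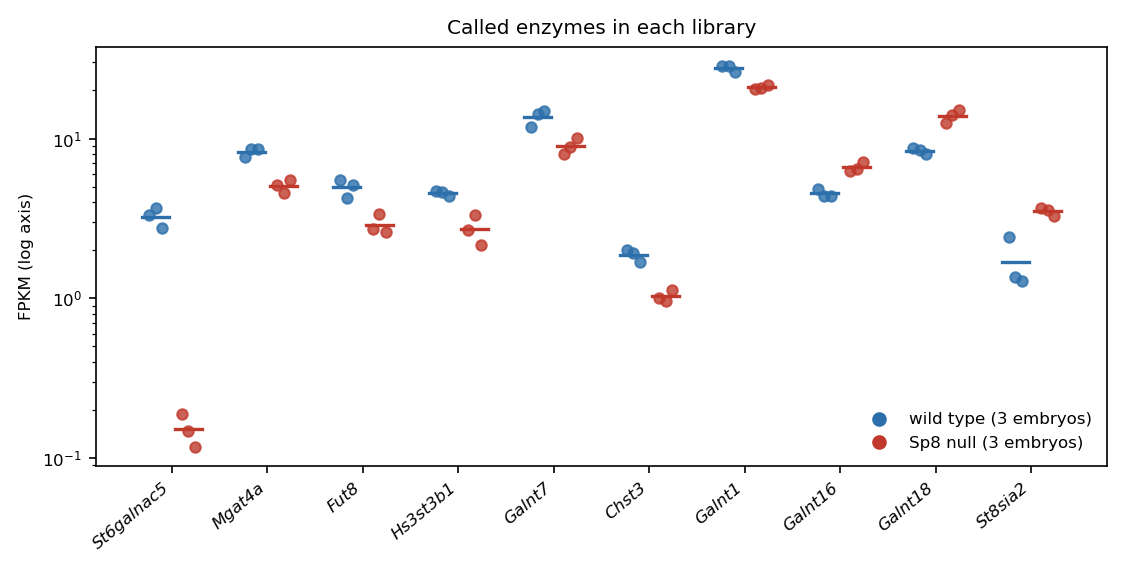
FPKM on a log axis in each library for the 10 called enzymes, with wild-type embryos in blue, Sp8 null embryos in red and a bar at the mean of 3 embryos. The genotypes do not overlap for any of the 10, and St6galnac5 shows by far the widest gap, with null values of 0.117 to 0.188 FPKM under wild-type values of 2.76 to 3.65 FPKM.

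St6galnac5 (chr3:152817081-152982246, minus strand, GRCm38), which adds sialic acid in a2,6 linkage to the N-acetylgalactosamine of gangliosides, was the only member that changed at least 2-fold on the log2(FPKM + 1) scale. It was at 0.188, 0.148 and 0.117 FPKM in Sp8 null embryos 1, 2 and 3, and at 3.31, 3.65 and 2.76 FPKM in the wild-type embryos. All null libraries were under 1 FPKM, and all wild-type libraries were above it. The means were 0.151 ± 0.0355 and 3.24 ± 0.448 FPKM (SD, n = 3), a wild-type level 21.4 times that of the null, and the log2 fold change was -1.88 (SE 0.12, limma adjusted p = 0.000248). St6galnac5 passed the expression filter only through the wild type, as did Chst2. Within the St6galnac family it made up 37.5% to 43.9% of the summed FPKM in wild-type libraries and 2.52% to 3.55% in null libraries. In these bulk samples, fewer cells that express a gene and less RNA per cell cannot be told apart.

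The Galnt enzymes add the first N-acetylgalactosamine of mucin-type O-glycans to serine or threonine. Of 8 tested members, 2 were called higher, 2 were called lower and 4 were not called. Of all tested genes, 1.68% were called higher and 5.15% lower. Only Galnt18 of these 4 kept its call in all 6 fits with 1 embryo left out. Galnt18 (chr7:111471661-111779977, minus strand, GRCm38) was at 12.5, 14.0 and 15.1 FPKM in the null and at 8.69, 8.46 and 8.05 FPKM in the wild-type libraries. Every null library was above every wild-type library, with means of 13.9 ± 1.27 and 8.40 ± 0.326 FPKM and a log2 fold change of 0.66 (SE 0.09, limma adjusted p = 0.00646). Galnt16 (chr12:80518277-80630972, plus strand) was at 6.24, 6.41 and 7.14 FPKM in the null and at 4.85, 4.40 and 4.37 FPKM in the wild type, again without overlap, and rose by 0.46 (SE 0.09, limma adjusted p = 0.0298).

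The most abundant of the 15 Galnt members went the other way. Galnt1 (chr18:24205344-24286818, plus strand, GRCm38) was at 20.5, 20.8 and 21.7 FPKM in the null and at 28.5, 28.4 and 26.0 FPKM in the wild-type libraries, and its log2 fold change was -0.38 (SE 0.07, limma adjusted p = 0.0215). Galnt7 (chr8:57523828-57653032, minus strand), which prefers peptides that already carry a sugar, was at 7.98, 8.91 and 10.1 FPKM against 11.8, 14.3 and 14.9 FPKM, a change of -0.55 (SE 0.12, limma adjusted p = 0.0371). All null values of both genes were under all wild-type values. Galnt1 made up 31.7% to 34.2% of the summed FPKM of these 15 members in null libraries and 38.9% to 41.4% in wild-type libraries, while that sum itself, which leaves out family genes that the symbol rule did not match, overlapped, at 59.9 to 68.5 FPKM in the null and 66.9 to 69.3 FPKM in the wild type.

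Changes in both directions were also seen among the sialyltransferases, of which 11 of 20 were tested, 1 rose and 1 fell. St8sia2 (chr7:73939119-74013690, minus strand, GRCm38), which builds polysialic acid chains on carriers such as the neural cell adhesion molecule, was at 3.65, 3.56 and 3.28 FPKM in the null and at 2.41, 1.35 and 1.29 FPKM in the wild-type libraries. Wild-type embryo 1 was higher than the other wild-type embryos but still under every null embryo. The null mean was 2.08 times the wild-type mean, and the log2 fold change was 0.77 (SE 0.16, limma adjusted p = 0.0369). Polysialic acid is also made by St8sia4, which was not tested and overlapped between the groups, at 0.707 to 0.873 FPKM in the null and 0.523 to 0.924 FPKM in the wild type. St6gal1, the most abundant sialyltransferase, was at 30.4, 28.0 and 30.9 FPKM against 36.9, 36.9 and 34.5 FPKM, without overlap, and was not called (log2 fold change -0.27, limma adjusted p = 0.0635).

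Among enzymes that shape N-glycans, 1 branching enzyme and 1 fucosyltransferase fell. Mgat4a (chr1:37439340-37541016, minus strand, GRCm38), which starts a b1,4-linked N-acetylglucosamine branch, was at 5.08, 4.54 and 5.51 FPKM in the null and at 7.68, 8.55 and 8.55 FPKM in the wild type, with a log2 fold change of -0.62 (SE 0.10, limma adjusted p = 0.0116). Fut8 (chr12:77238125-77476338, plus strand), which adds the core fucose, was at 2.72, 3.36 and 2.60 FPKM in the null and at 5.50, 4.26 and 5.10 FPKM in the wild type, with a change of -0.61 (SE 0.12, limma adjusted p = 0.0303). Neither gene overlapped between the groups. Mgat4b, which carries out the same step as Mgat4a, was at 2.87, 3.38 and 3.42 FPKM in the null and 4.50, 2.94 and 3.28 FPKM in the wild type, which overlapped (log2 fold change -0.10, limma adjusted p = 0.703). Mgat5, the most abundant Mgat enzyme and the one that adds the b1,6 branch, was at 13.5, 12.6 and 14.9 FPKM in the null and at 11.2, 11.8 and 10.2 FPKM in the wild type, so the null libraries were above. It was not called (log2 fold change 0.28, limma adjusted p = 0.118), but was called under both scalings, at 0.35 and 0.37. Fut10, the most abundant Fut member, overlapped, at 4.26 to 6.31 FPKM in the null and 5.67 to 6.20 FPKM in the wild type (limma adjusted p = 0.582).

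The B3gnt and B4galt enzymes add N-acetylglucosamine and galactose. None of their 11 tested members was called by limma, while 4 had an unadjusted p under 0.05, beside 24.0% of all tested genes. B4galt4, which had both the highest level and the smallest p of this group, was at 14.2, 13.6 and 16.5 FPKM in the null and at 19.9, 19.0 and 18.6 FPKM in the wild type. The groups did not overlap, and the log2 fold change was -0.36 (limma adjusted p = 0.0554, and 0.0433 where the test was limited to genes averaging 5 FPKM or more).

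**Figure D2:**
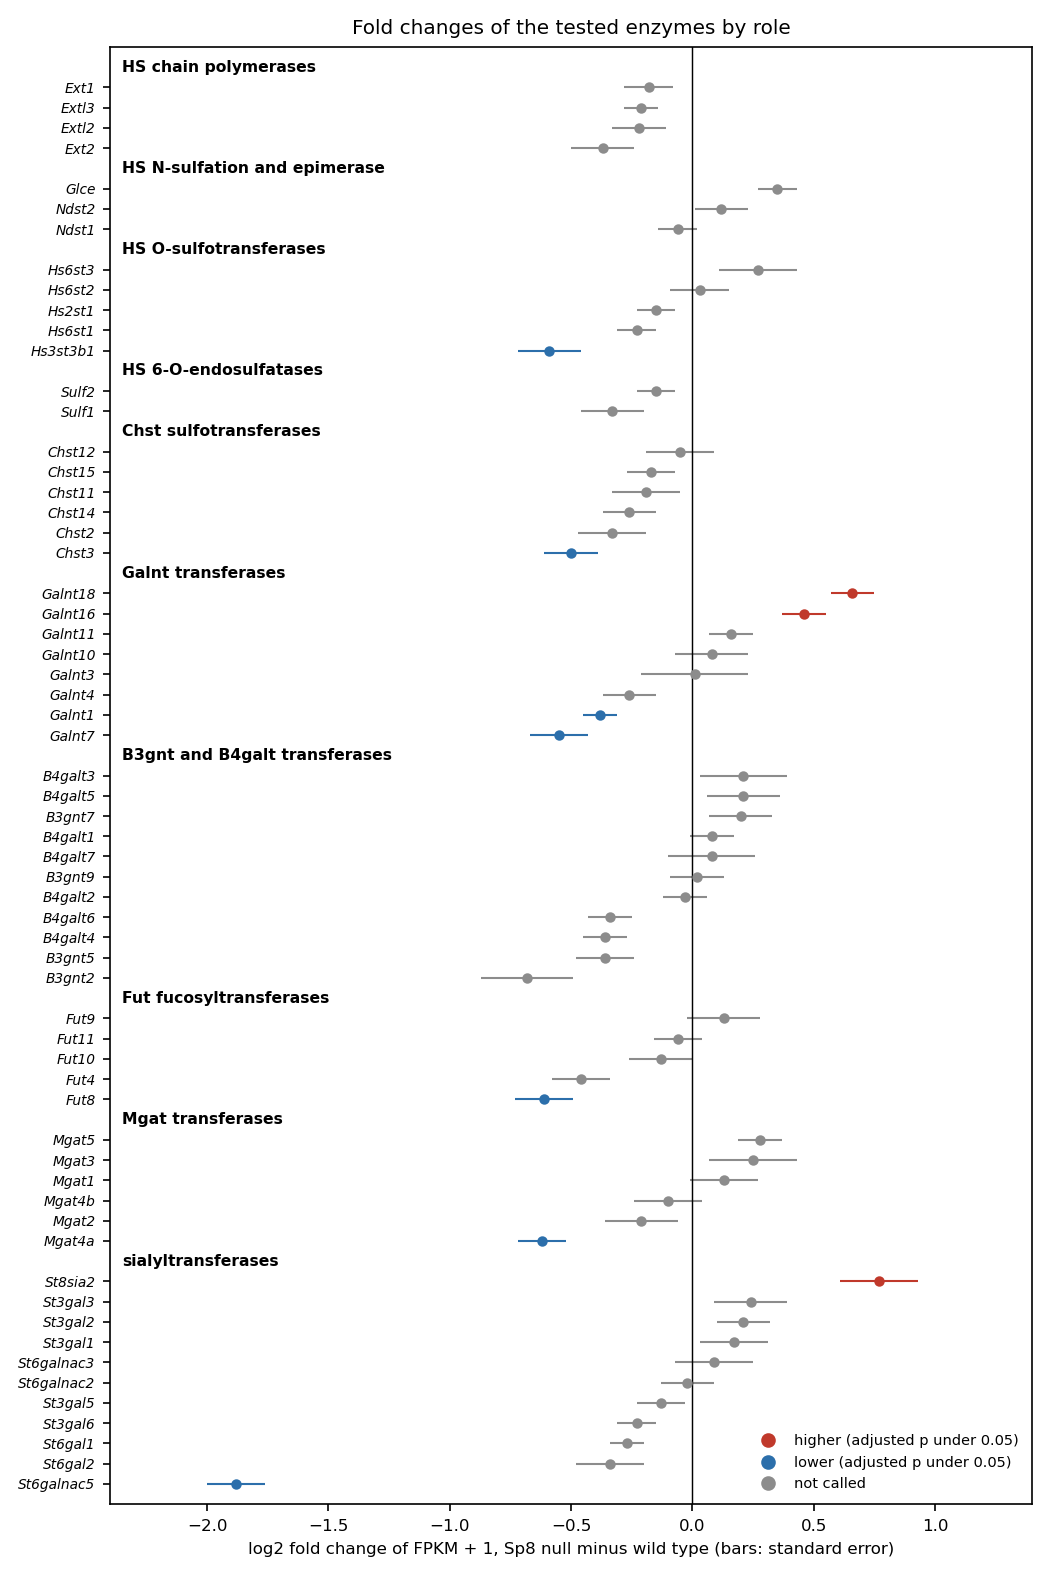
Log2 fold change of FPKM + 1, Sp8 null minus wild type, for the 61 tested enzymes grouped by role, with bars of 1 standard error, calls at an adjusted p under 0.05 in colour and all other members in grey. The Galnt and sialyltransferase groups hold calls on both sides of 0, and St6galnac5 lies at -1.88, apart from all other members, which lie between -0.68 and 0.77.

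Of 14 tested heparan sulfate enzymes, Hs3st3b1 fell and 13 were not called. This 1 call of 14 is a share near the 6.83% called among all tested genes. At an unadjusted p under 0.05, 6 of the 14 passed, 5 of them lower. Of all tested genes, 24.0% passed, and 17.5% passed and were lower. The mean log2 value was lower in the null for 10 of the 14 and higher for 4, where it was lower for 61.3% of all tested genes, with a median log2 fold change of -0.17 beside -0.06 over all tested genes. Hs3st3b1 (chr11:63885792-63922290, minus strand, GRCm38), which adds the 3-O-sulfate, the rarest modification of the chain, was at 2.67, 3.31 and 2.15 FPKM in the null and at 4.70, 4.60 and 4.34 FPKM in the wild-type libraries. The groups did not overlap, and the change was -0.59 (SE 0.13, limma adjusted p = 0.0384). It made up 65.2% to 71.0% of the summed Hs3st FPKM in the null and 67.1% to 75.6% in the wild type, so it was the main 3-O-sulfotransferase transcript in both.

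The 4 tested Ext and Extl enzymes all had lower means in the null, also under both scalings. None was called by limma, and 2 had an unadjusted p under 0.05, beside 24.0% of all tested genes. Ext1 was at 30.0, 31.3 and 28.6 FPKM in the null and at 38.0, 35.5 and 29.5 FPKM in the wild type, which overlapped (log2 fold change -0.18, limma adjusted p = 0.321). Its partner Ext2 was at 18.7, 18.0 and 15.9 FPKM against 26.8, 23.3 and 19.1 FPKM, without overlap (-0.37, limma adjusted p = 0.131). Extl3, which adds the first N-acetylglucosamine of the chain, was at 15.3, 15.3 and 15.6 FPKM against 19.4, 17.4 and 17.4 FPKM, also without overlap (-0.21, limma adjusted p = 0.127). Wild-type embryo 1 had the highest value of each of the 3 genes. Extl2 overlapped, at 4.19 to 4.53 and 4.47 to 5.79 FPKM (-0.22, limma adjusted p = 0.265).

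Glce, which turns glucuronic into iduronic acid in the chain, was the heparan sulfate enzyme with the clearest difference upward. It was at 32.3, 28.9 and 34.0 FPKM in the null and at 24.6, 26.3 and 23.3 FPKM in the wild-type libraries. Every null library was above every wild-type library, and the log2 fold change of 0.35 (SE 0.08) narrowly missed the threshold (limma adjusted p = 0.0542). It passed with median-of-ratios scaling (0.42, adjusted p = 0.0210), with upper-quartile scaling (0.44, adjusted p = 0.0125) and with only genes of at least 5 FPKM tested (adjusted p = 0.0469). Among other alternatives, Glce did not pass with no filter on low values (limma adjusted p = 0.119) or with embryo number as a replicate block (limma adjusted p = 0.179). The N-sulfating enzymes overlapped between the groups: Ndst1 was at 15.8 to 18.1 FPKM in the null and 16.8 to 18.3 FPKM in the wild type (-0.06, limma adjusted p = 0.707), and Ndst2 at 5.09 to 5.94 and 4.33 to 5.71 FPKM (0.12, limma adjusted p = 0.564). Ndst1 made up 73.6% to 78.5% of the summed Ndst FPKM over the 6 libraries.

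Of the 2-O- and 6-O-sulfotransferases, none was called by limma, and only Hs6st1 had an unadjusted p under 0.05. Hs2st1 was at 16.2, 15.7 and 16.7 FPKM in the null and at 18.1, 19.5 and 16.9 FPKM in the wild type (-0.15, limma adjusted p = 0.284). Hs6st1 was at 18.5, 16.2 and 17.9 FPKM against 20.1, 20.5 and 21.6 FPKM (-0.23, limma adjusted p = 0.120). For both, all null values were under all wild-type values, by a small margin for Hs2st1. Hs6st1 made up 76.6% to 79.7% of the summed Hs6st FPKM in the null and 81.1% to 83.3% in the wild type. Hs6st2 (0.03, limma adjusted p = 0.898) and Hs6st3 (0.27, limma adjusted p = 0.351) overlapped between the groups. The endosulfatase Sulf2 was at 52.8, 54.3 and 50.5 FPKM in the null and at 65.2, 56.7 and 53.8 FPKM in the wild type, which overlapped (-0.15, limma adjusted p = 0.335). Sulf1 was at 15.6, 14.2 and 13.9 FPKM against 16.0, 22.8 and 17.5 FPKM, without overlap (-0.33, limma adjusted p = 0.171).

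**Figure D3:**
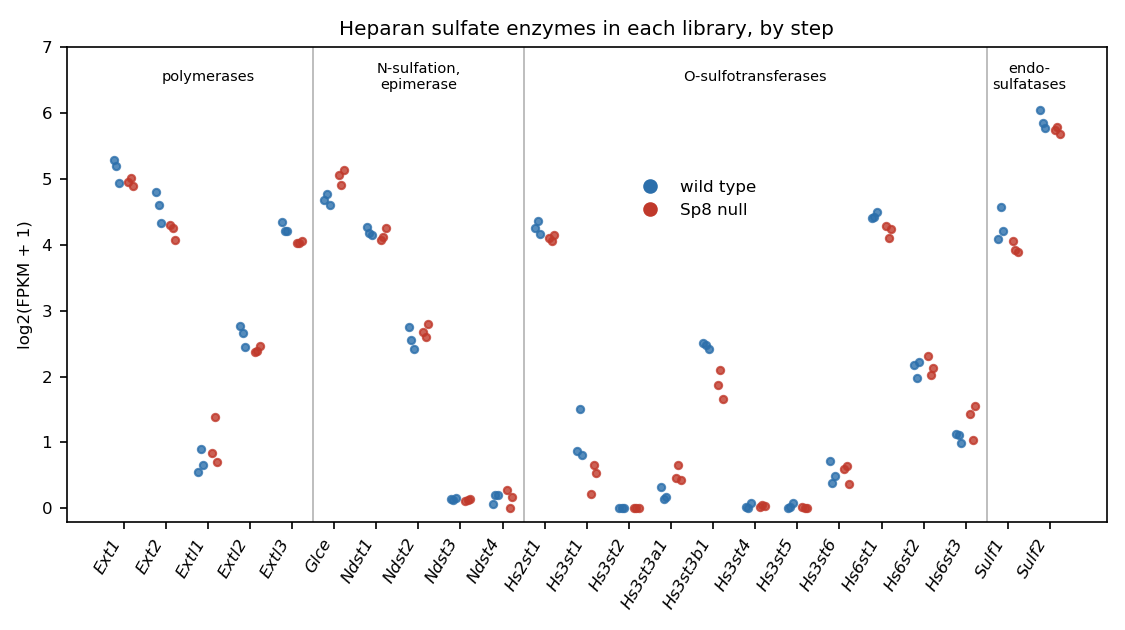
Log2(FPKM + 1) in each library for the 23 heparan sulfate enzymes by step of chain synthesis, wild-type embryos in blue and Sp8 null embryos in red. Ext1, Ext2, Extl3, Ndst1, Glce, Hs2st1, Hs6st1 and the Sulf enzymes are abundant in both genotypes. The separation of Hs3st3b1 is downward and that of Glce upward in the null.

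Sulfation of other chains falls to the Chst enzymes, of which 6 of 14 were tested and 1 fell. Chst3 (chr10:60181532-60219260, minus strand, GRCm38), a chondroitin 6-O-sulfotransferase, was at 0.999, 0.961 and 1.13 FPKM in the null and at 2.01, 1.92 and 1.70 FPKM in the wild-type libraries, without overlap (-0.50, SE 0.11, limma adjusted p = 0.0373). Chst11, a chondroitin 4-O-sulfotransferase and the most abundant Chst member, was at 16.8, 13.5 and 17.1 FPKM against 20.3, 19.6 and 14.9 FPKM, which overlapped (-0.19, limma adjusted p = 0.456). FPKM was also summed over each role group. Without further scaling, 7 of the 10 sums were lower in every null than in every wild-type library, 1 was higher and 2 overlapped. Under each of the scalings, 1 sum was lower (the Fut enzymes), 1 was higher (Ndst and Glce) and 8 overlapped. Most of the lower sums thus depended on the scaling. The median log2 fold change over all tested genes was -0.06 without scaling, 0.01 with median-of-ratios and 0.03 with upper-quartile scaling.

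**Figure D4:**
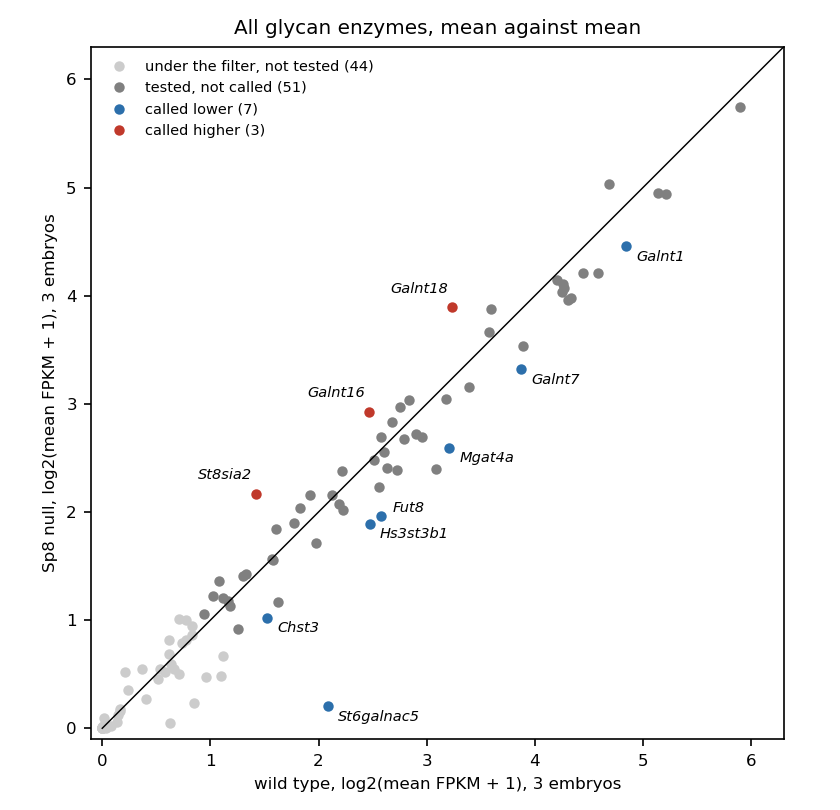
Log2(mean FPKM + 1) in 3 Sp8 null embryos against that in 3 wild-type embryos for all 105 enzymes, with the line of equality, called members in colour, tested members in dark grey and the 44 untested members in light grey. Most points lie close to the line, and St6galnac5 lies farthest from it.

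The strength of the 10 calls differed. St6galnac5 and Galnt18 were called in every alternative analysis that tested them. When 1 embryo at a time was left out, log2 fold changes ranged from -1.96 to -1.81 for St6galnac5 and from 0.60 to 0.73 for Galnt18, and the limma adjusted p reached at most 0.00233 and 0.0330. Among these fits, Mgat4a lost its call only without wild-type embryo 2 (limma adjusted p = 0.0582). Galnt16 and Chst3 lost theirs without any 1 of the 6 embryos, with limma adjusted p of 0.0544 to 0.119 and 0.0618 to 0.130. St8sia2 kept its call only without wild-type embryo 1 (limma adjusted p = 0.00812, highest 0.130), and Hs3st3b1 only without Sp8 null embryo 2 (0.0285, highest 0.131). Galnt1 was called only without null embryo 3 or wild-type embryo 3 (0.0368 to 0.104 over the 6 fits), Galnt7 only without null embryo 3 or wild-type embryo 1 (0.0340 to 0.136), and Fut8 only without null embryo 2 or wild-type embryo 2 (0.0384 to 0.0900). With scaling, Galnt7 and Hs3st3b1 lost their calls under both methods, at 0.0567 and 0.0583 with median-of-ratios and at 0.0611 and 0.0708 with upper-quartile scaling, and Fut8 under upper-quartile scaling (0.0542). In all, 4, 5 and 6 members were called without null embryos 1, 2 and 3, and 5, 3 and 4 without wild-type embryos 1, 2 and 3. Calls also fell over all tested genes, from 6.83% to between 2.60% and 5.29%, beside 4.92% to 9.84% of the tested members.

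Sample names began with 4 for embryo 1 of each genotype and with 5 for the other embryos, and what the number stands for is not given in the sources used here. For all 10 called members, the difference had the same sign in the pair of embryos with number 4 and among the embryos with number 5. It was -1.86 and -1.88 for St6galnac5, 0.48 and 0.75 for Galnt18 and 0.45 and 0.93 for St8sia2 (log2 scale). With this number as a covariate, Chst3, Fut8, Galnt16 and Hs3st3b1 were not called and the other 6 were.

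Among the 44 untested members, 8 had groups that did not overlap, named here after their values were seen. The share without overlap among all untested genes was not computed, so this count has no background beside it. Below in the null were Chst8, Galnt6, Hs3st1, St6galnac4, St8sia1 and St8sia3, and above were Chst5 and Hs3st3a1. Galnt6 was at 0.0463, 0.0451 and 0.0191 FPKM in Sp8 null embryos 1, 2 and 3 and at 0.338, 0.684 and 0.605 FPKM in the wild-type embryos. St8sia3, a relative of St8sia2, was at 0.220, 0.160 and 0.158 FPKM against 0.788, 0.738 and 0.861 FPKM, so the null libraries were all low. It was called with no filter on low values (log2 fold change -0.61, limma adjusted p = 0.0224), when 5 of 99 members (5.05%) and 1.23% of all genes were, and Galnt6 was not (-0.57, limma adjusted p = 0.0621).

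Both members of the Hs3st3 pair were measured. Hs3st3a1, low throughout, was at 0.379, 0.582 and 0.349 FPKM in the null and at 0.250, 0.0980 and 0.127 FPKM in the wild type, the opposite direction to Hs3st3b1. Of its exonic bases, 32.9% overlap a gene on the other strand, and without known strand use these reads cannot be told apart. Hs3st1 was at 0.168, 0.575 and 0.449 FPKM in the null and at 0.825, 1.84 and 0.760 FPKM in the wild type.

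In the authors' deposited table, 32 of the 61 tested members (52.5%) had a p-value under 0.05, beside 31.3% of all tested genes, 23 of them lower and 9 higher in the null. All 10 called members were among them with the same direction. The authors' deposited table listed a fold change of -13.9 for St6galnac5, with means of 706 in wild type and 35.0 in the null, of 1.68 for Galnt18 and of -1.54 for Mgat4a.

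The promoters of called enzymes were read to show what lies in front of them. Of the 10, 7 had an entry in the RefSeq promoter table of GRCm38.p6, and Galnt1, Galnt18 and St6galnac5 were missing from it. The 4 with a single start are printed, 250 bases before the start, 5' to 3' on the strand of the gene, because Sp family proteins are known to bind GC boxes. GC boxes (GGGCGG on either strand, thus also CCGCCC) are in capitals. The regions are chr10:60219261-60219510 for Chst3, chr8:57653056-57653305 for Galnt7, chr11:63922285-63922534 for Hs3st3b1 and chr7:74013683-74013932 for St8sia2, all on the minus strand.
Chst3: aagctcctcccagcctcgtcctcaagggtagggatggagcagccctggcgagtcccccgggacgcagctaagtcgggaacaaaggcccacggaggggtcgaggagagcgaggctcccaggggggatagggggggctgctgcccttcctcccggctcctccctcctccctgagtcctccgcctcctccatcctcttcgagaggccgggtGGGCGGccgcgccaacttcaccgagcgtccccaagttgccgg
Galnt7: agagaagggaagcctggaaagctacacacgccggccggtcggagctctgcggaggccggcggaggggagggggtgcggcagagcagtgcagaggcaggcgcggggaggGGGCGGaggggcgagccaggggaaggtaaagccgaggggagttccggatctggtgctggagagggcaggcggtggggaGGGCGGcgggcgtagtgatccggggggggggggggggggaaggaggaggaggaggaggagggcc
Hs3st3b1: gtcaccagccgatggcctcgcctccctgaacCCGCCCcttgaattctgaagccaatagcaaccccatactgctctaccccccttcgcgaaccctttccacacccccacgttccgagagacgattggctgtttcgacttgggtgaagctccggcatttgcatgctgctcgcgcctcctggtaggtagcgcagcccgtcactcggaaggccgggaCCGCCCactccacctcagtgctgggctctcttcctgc
St8sia2: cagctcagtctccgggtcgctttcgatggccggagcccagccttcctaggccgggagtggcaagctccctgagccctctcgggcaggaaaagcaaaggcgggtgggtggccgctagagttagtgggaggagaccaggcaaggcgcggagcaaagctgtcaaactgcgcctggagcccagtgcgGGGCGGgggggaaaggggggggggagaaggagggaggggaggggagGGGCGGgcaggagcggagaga
Chst3 holds 1 GC box and the other three hold 2 each, in sequences with a GC content of 69.6%, 73.6%, 62.4% and 68.8%. St8sia2, which was higher in the null, and Galnt7 and Hs3st3b1, which were lower, thus have the same number. A GC box was found in at least 1 promoter of 6 of 7 called members, 29 of 37 tested members that were not called and 23 of 35 untested members. Counted per promoter, 58.8% of the 102 promoters of members and 32.7% of all 32851 promoters in the table held one. A match describes these letters only and does not mark a bound site.

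Genes linked to these enzymes were followed on 5 lists, with 97 genes in the table and 69 tested. Of these, 5 were called (7.25%, beside 6.83% of all tested genes), 1 higher and 4 lower. Man2a1, the Golgi mannosidase that trims N-glycans on the way to complex chains, was at 12.0, 14.0 and 12.6 FPKM in the null and at 30.6, 35.1 and 26.5 FPKM in the wild-type libraries. Its groups were far apart, with a log2 fold change of -1.19 (SE 0.11, limma adjusted p = 0.00139). Slc35d1, a Golgi and endoplasmic reticulum carrier for nucleotide sugars used in chondroitin synthesis, was at 12.1, 13.0 and 15.3 FPKM against 7.89, 8.62 and 8.60 FPKM and was the only linked gene that rose (0.62, SE 0.10, limma adjusted p = 0.0139).

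Agrn, a heparan sulfate proteoglycan core, was the only 1 of 14 tested cores that was called. It was at 47.3, 49.0 and 54.7 FPKM in the null and at 67.3, 66.3 and 67.6 FPKM in the wild type, a fall without overlap (-0.41, SE 0.07, limma adjusted p = 0.0182). Of 11 tested genes for the linker and for chondroitin and dermatan chains, Chsy1, a chondroitin polymerase (13.3 to 13.6 against 16.5 to 18.4 FPKM, -0.35, limma adjusted p = 0.0321), and Ust, a uronyl 2-O-sulfotransferase (0.612 to 0.946 against 1.54 to 1.99 FPKM, -0.66, limma adjusted p = 0.0261), fell. Ust passed the expression filter only through the wild type, where it is high. None of 5 tested genes of heparan sulfate breakdown was called by limma. An unadjusted p under 0.05 was found for 2, beside 24.0% of all tested genes, and the smallest p was that of Gusb (-0.29, limma adjusted p = 0.0894). With 1 embryo left out at a time, Man2a1 kept its call in all 6 fits (limma adjusted p at most 0.00992), and Slc35d1 lost it only without wild-type embryo 2 (0.0525). Agrn kept its call only without null embryo 3 (0.0168 to 0.0738 over the 6 fits), Ust only without null embryo 1 or wild-type embryo 3 (0.0456 to 0.103), and Chsy1 in none (0.0511 to 0.125).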

How the data were processed

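RNA-seq values of 6 libraries (3 Sp8 null, 3 wild type, grouped by sample title) were read from 1 table. The authors deposited FPKM per gene and library, each with an estimation status. Per the submitters' processing notes, FastQC, TopHat2, SAMtools, Cufflinks and DESeq2 were used with the GRCm38 genome; their roles, their versions and the use of strand are not given in the sources used here. Per the file headers, gene models were Ensembl 87. The deposited table also gives a mean signal per group, a signed fold change score and a p-value, whose test and adjustment are not given in the sources used here.

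The 12133 of 49452 genes that reached 1 FPKM in 3 or more libraries were tested as log2(FPKM + 1) with limma 3.58.1 in R 4.3.3, with genotype as the only term, a mean-variance trend, two-sided p-values and Benjamini-Hochberg adjustment over all tested genes. Fold changes on this scale understate those of low genes. The script was tested on simulated data. Named were Sp8, every called member, the member with the smallest p and the one with the highest level in each role group, every tested heparan sulfate enzyme, and the called and smallest-p genes of linked lists. The members and lists were chosen with earlier results of these data known. Relative depth came from the step of 1 read in genes under 0.1 FPKM. Counts could not be recovered, which left no basis for a count test or a counting interval. Libraries of 1 genotype correlated at 0.970 to 0.978. Coordinates and exon overlaps are from GENCODE M21 (GRCm38), which held all 105 members. The alternatives were 2 scalings, another pseudocount, 2 other filters, a replicate block, the name number as a covariate, no trend, failed estimates left out and each embryo left out.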

Additional observations from a re-analysis of the deposited data

How the results depend on the processing

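Alternatives that moved counts by over 1.5 times, or the median, were as follows. With no filter on low values, 5 members were called (1 higher, 4 lower; median log2 fold change -0.03) and 1 linked gene. With only genes of at least 5 FPKM on average, 6 were called (20.0%, beside 8.32% of all tested genes), 4 of them lower (median -0.18). Median-of-ratios scaling gave 5 higher calls (median -0.06) and upper-quartile scaling 5 higher and 4 lower (median -0.04); the share of all calls that were higher went from 24.6% to 37.2% and 41.7%. With the name number as a covariate, 6 were called (9.84%, beside 4.49% of all tested genes), 4 of them lower. Leaving out 1 embryo gave 3 to 6 calls (1 to 2 higher, 2 to 5 lower) and 1 to 4 linked calls. These were 4.92% to 9.84% of tested members, beside 2.60% to 5.29% of all tested genes. Embryo numbers were not taken as a pairing, since deviations of same-numbered embryos correlated at -0.16, -0.14 and -0.07, and 0 of 6 libraries correlated best with their own number. With these numbers as a replicate block, 4 members (1 higher, 3 lower) and 2 linked genes were called. The 4 were 6.56% of tested members, beside 2.70% of all tested genes. St6galnac5, Galnt18 and Galnt7 kept their calls, B3gnt2 gained one, and the other 7 lost theirs, Mgat4a at an adjusted p of 0.0506. Ndst1 reversed to 0.01 and 0.03 under the scalings, and Hs6st2 to -0.04 without null embryo 1 and to -0.04 without wild-type embryo 2 (-0.04 to 0.10 with 1 embryo left out). Of 427 values for 29 single genes, 358 kept direction and side of the threshold, 58 lost and 7 gained a call. A cause was not tested, beyond the smaller number of samples in fits without an embryo. Depth limits what can be said of members under 1 FPKM.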

Other observations

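Exons of 34 members overlap those of another gene. B3gnt2 shares 65.5% of its exonic bases with genes on the same strand. Its means were 4.28 ± 0.986 FPKM in the null and 7.49 ± 1.70 FPKM in the wild type (log2 fold change -0.68, limma adjusted p = 0.0792). These stand beside mean signals of 1.59 and 4.64 in the authors' deposited table. St3gal6, with 26.0% of its exonic bases overlapped on the other strand, had a log2 fold change of -0.23 in FPKM (limma adjusted p = 0.151) and a fold change of 1.16 in the authors' deposited table. Of the called members, Galnt16 (7.85%), Galnt7 (1.87%), St6galnac5 (1.80%) and Fut8 (0.949%) overlap a gene on the other strand, and the other 6 overlap none.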
